A study of Glycine max with 10 samples.

Results

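Pdh1 (row Glyma.16G141400.Wm82.a2.v1 of the deposited table) is the soybean (Glycine max) gene of the pod dehiscence locus on chromosome 16. It was chosen by its ID, as 1 of the 56044 genes counted, with earlier results of these data known. It was 1 of the 30226 genes with enough counts to be tested. Pods were harvested 18 days after flowering from plants grown in the field, and total RNA was sequenced in 10 libraries, 5 from soybeans labelled with high pod shattering force (015, 018, 044, 060 and 071, called high_force) and 5 from soybeans labelled with low pod shattering force (038, 055, 072, 092 and 109, called low_force). The labels give no cultivar, genotype or Pdh1 allele, and whether a number stands for 1 plant, a line or a pool is unknown, so each p-value measures the spread between these libraries only. How the force was measured, and which group opens its pods more readily in the field, is not stated either.

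Dirigent proteins steer the coupling of monolignol radicals, from which lignans and lignin-like polymers are built. Work on soybean has placed Pdh1 transcript in the inner sclerenchyma of the pod wall, a lignified layer, and has tied the functional gene to the twisting of the drying pod walls that splits the pod. The allele spread in many shattering-resistant cultivars carries an early stop codon. Counts summed over a gene do not show which allele a soybean carries.

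The deposited table gives raw counts, with totals between 3779756 (high_force 018) and 13298201 (high_force 044). Levels are given as CPM, counts per 1000000 (1 M) counts of depth, scaled to effective depths that the trimmed mean of M-values (TMM) sets so that most genes stand level between libraries. Low_force 055 stood apart: genes whose ID names chromosome 13 took 78.9% of its counts, against 8.33% to 30.1% in the other 9 libraries, and its effective depth was 0.922 M counts, against 4.35 to 20.1 M. The Pdh1 comparisons and the likeness values are given with and without it. The pod wall transcription factors SHAT1-5 and NST1A were counted in all 10 libraries, with summed levels of 48.7 to 68.6 CPM in high_force and 43.0 to 66.2 CPM in low_force.

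Pdh1 was scarce in every high_force library. It had 3 counts in high_force 015 (0.495 CPM), 12 in 018 (2.25 CPM), 8 in 044 (0.398 CPM), 3 in 060 (0.563 CPM) and 7 in 071 (0.582 CPM). In low_force it had 44 counts in 038 (5.11 CPM), 0 in 055, 25 in 072 (5.75 CPM), 208 in 092 (20.8 CPM) and 224 in 109 (22.6 CPM). The 5 high_force libraries thus lay below 4 of the 5 low_force libraries, and low_force 055 was the only one to overlap them. Without low_force 055 the groups did not overlap, a pattern found in 1.21% of the genes tested for genes lower in high_force. In pod tissue, fewer Pdh1-expressing cells and less Pdh1 RNA per cell cannot be told apart.

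**Figure D1:**
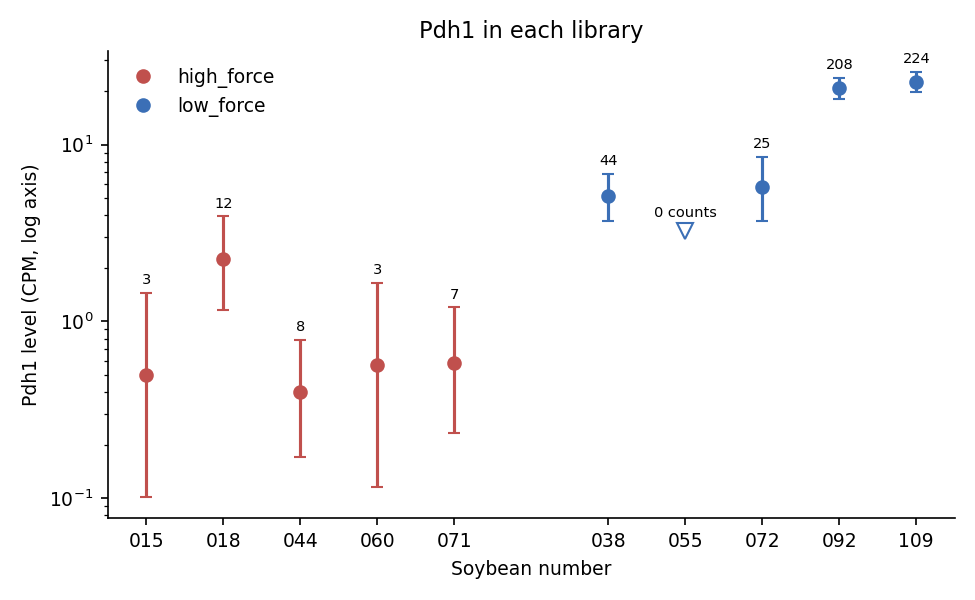
Pdh1 level in CPM (log axis) in each library, high_force left and low_force right. Bars are exact 95% Poisson intervals for counting error, the number above each point is its count, and the open triangle marks the 3.26 CPM that 3 counts would make in low_force 055, which had 0 counts. The high_force points lie between 0.398 and 2.25 CPM and the 4 low_force points between 5.11 and 22.6 CPM.

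Counting error was wide at these counts. The exact 95% Poisson interval was 0.102 to 1.45 CPM in high_force 015 and 1.16 to 3.93 CPM in high_force 018, against 3.71 to 6.86 CPM in low_force 038 and 19.7 to 25.7 CPM in low_force 109. These intervals cover counting error only. They were separated in 18 of the 25 pairs of a high_force with a low_force library. The 7 other pairs were the 5 that hold low_force 055 and those of high_force 018 with low_force 038 and 072.

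The 0 counts of low_force 055 allow up to 3.26 CPM, taking 3 counts as the limit, which covers every high_force level. At the levels of the high_force libraries, low_force 055 would give between 0.367 and 2.07 Pdh1 counts, so it could not be told from high_force at this depth. At the levels of its own group it would give 4.71 counts (that of 038), 5.30 (072), 19.1 (092) and 20.8 (109). Taking the other low_force libraries, 18674 tested genes had at least 25 counts (the lowest Pdh1 count there) in each of the 4, and 200 of these (1.07%) had 0 counts in low_force 055, Pdh1 among them. The limit depends on scaling. As CPM of the deposited totals it is 0.460, below the 0.584 to 3.17 of the high_force libraries.

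High_force averaged 0.857 ± 0.781 CPM (SD, n = 5). Low_force averaged 10.8 ± 10.2 CPM (SD, n = 5), and 13.5 ± 9.41 CPM (SD, n = 4) without low_force 055. The log2 fold change, high_force minus low_force, was -3.82 (SE 0.81). In edgeR's quasi-likelihood test its unadjusted p was 0.000474, which 0.0132% of the genes tested reached, and it did not pass after Benjamini-Hochberg adjustment over all genes tested (adjusted p = 0.796). No call was made by that test on any gene (0 higher and 0 lower, 0% each), while 747 genes (2.47%) were higher and 1146 (3.79%) lower in high_force at unadjusted p under 0.05.

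The call on Pdh1 turned on the test and the scaling, while its direction did not. DESeq2 called it lower in high_force (log2 fold change -3.76, adjusted p = 0.00891) among 19 genes lower there, 0.0566% of those with an adjusted p. The edgeR exact test gave an adjusted p of 0.0690. With library size as the only scaling, edgeR's quasi-likelihood test called it (-3.49, adjusted p = 0.00841), among 36 genes higher and 26 lower, and the median of all genes moved by 0.55 on the log2 scale. Over the 11 other settings and the 10 fits that each leave out a soybean, the log2 fold change stayed between -4.47 and -3.38.

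**Figure D2:**
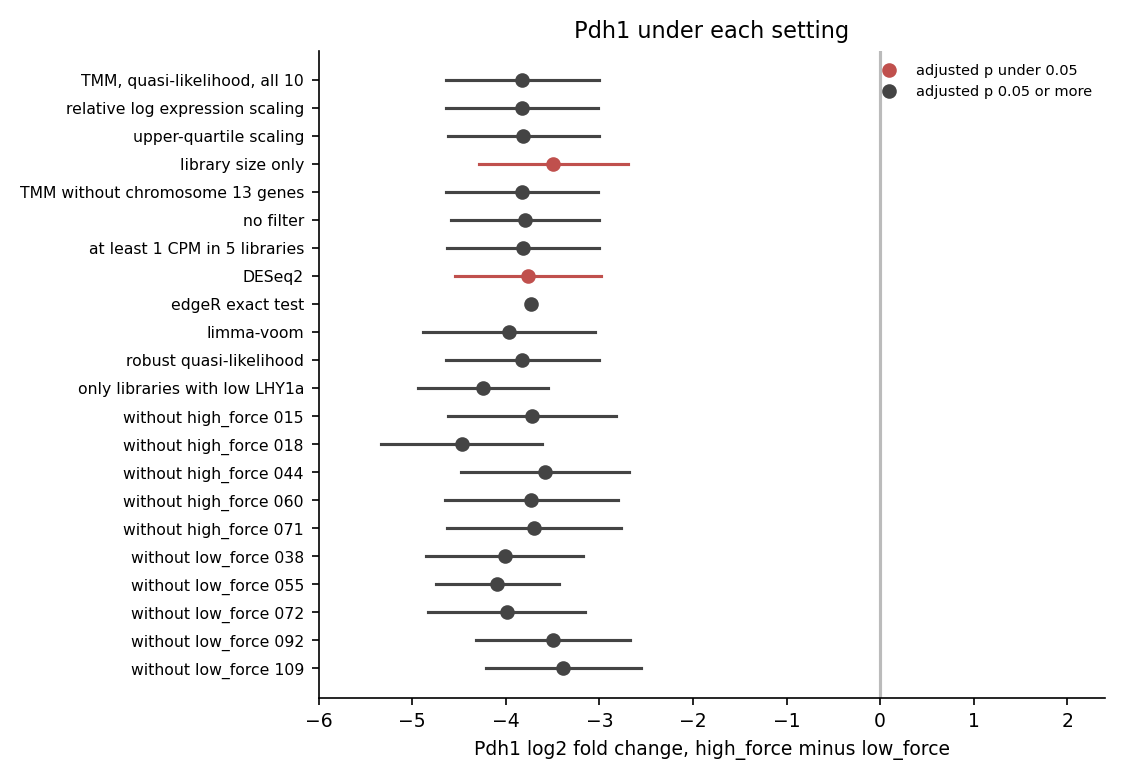
Pdh1 log2 fold change, high_force minus low_force, in the reported fit (top), under 11 other settings and without each soybean in turn. Points are estimates, bars are 1 SE (none for the exact test), and red marks an adjusted p under 0.05, reached with library size only and with DESeq2. Each estimate lies between -4.47 and -3.38.

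The coefficient of variation of Pdh1 was 91.1% in high_force and 93.7% in low_force, and 69.4% in low_force without 055. It includes counting error, which is larger at the low counts of high_force, so it does not show equal spread between soybeans. Within high_force, the highest library stood 5.65-fold above the lowest, and only the pair of high_force 018 with 044, out of 10 pairs, had separated counting intervals. High_force 018 overlapped 015, 060 and 071 in these intervals. The count dispersion index is the variance of counts about equal levels, over that of counting error alone. It was 5.59 in high_force and 0.206 without high_force 018. Spread beyond counting error in high_force thus rested on 018 and its 12 counts, and among the other high_force libraries none was seen.

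Low_force libraries other than 055 held more Pdh1 counts (25 to 224), which makes a given relative spread easier to see over counting error. The count dispersion index was 39.2 in low_force and 46.3 without low_force 055. The index grows with the counts, so its size is not compared between groups. Low_force 038 and 072 had overlapping intervals, as did 092 and 109, and the other 8 of 10 pairs were separated. The separation of low_force 055 from 038 and 072 rests on the limit of 3 counts: the two-sided 95% bound of a 0 count, 4.003 CPM, overlaps both. Without low_force 055 the highest library stood 4.42-fold above the lowest. In the same 4 libraries SHAT1-5 and NST1A spanned 1.76-fold and 1.64-fold.

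On the log2 CPM scale the SD of Pdh1 was 0.79 in high_force and 2.66 in low_force, and 1.13 in low_force without 055. The median SD of all genes tested was 0.43 in high_force and 0.69 in low_force, and 0.58 in low_force without 055. An SD at least as large as that of Pdh1 was found in 15.98% of the genes tested in high_force, in 0.857% in low_force and in 14.3% in low_force without 055. The biological coefficient of variation that edgeR fitted to Pdh1 was 77.7%, against 48.0% over all genes, and 6.13% of the genes had one at least as large.

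Exact permutation tests, two-sided and over all 252 ways to split the libraries 5 against 5, were made on 3 measures of Pdh1. The mean log2 CPM differed by -2.44 (high_force minus low_force), which did not pass (exact p = 0.111, adjusted 0.111 over the 3 measures). This result depends on how the 0 counts of low_force 055 are entered. The prior count of 2 put that library at -2.05 log2 CPM, below every high_force library (-0.64 to 1.32). With other prior counts, chosen after seeing the data, the exact permutation p was 0.190 (prior count 0.5) and 0.0476 (prior count 5). Without low_force 055, a choice made after seeing the data, the difference was -3.58. The exact permutation p, over splits of 5 against 4, was 0.00794, the smallest possible. Leaving out that library leaves groups that do not overlap, so a p this small follows from the choice and is no further support. In edgeR's fit without that library the adjusted p was 0.345.

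A ratio taken inside a library needs no scaling factor. The 4 genes ACT11, ELF1B, UKN1 and TIP41, in common use as expression references, served as the denominator. They were not all level here: ACT11 lay at 26.2 to 82.2 CPM and ELF1B at 35.8 to 93.1 CPM over the 10 libraries. The log2 fold changes, high_force minus low_force, were -0.45 (SE 0.31) for ACT11 and -0.37 (SE 0.29) for ELF1B. Those of UKN1 and TIP41 were 0.005 (SE 0.23) and -0.05 (SE 0.21). Pdh1 stood at 2.82, 15.0, 2.51, 3.45 and 3.50 counts per 1000 reference gene counts in high_force 015, 018, 044, 060 and 071. In low_force it stood at 26.8, 26.7, 84.2 and 115.8 per 1000 in 038, 072, 092 and 109, while low_force 055, with 115 reference counts in all, allows up to 26.1. Again the 4 low_force libraries with Pdh1 counts lay above every high_force library.

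The mean log2 ratio, with 0.5 added to each Pdh1 count, differed by -2.78, high_force minus low_force (two-sided exact permutation p = 0.0159, adjusted 0.0357 over the 3 measures). This pass depends on how the 0 counts of low_force 055 are entered. The added 0.5 counts put that library at 2.12 on the log2 scale, above 4 of the 5 high_force libraries (1.41 to 2.01). With an added count scaled to each library's reference counts, chosen after seeing the data, the difference was -2.05 and the exact permutation p was 0.254. Without low_force 055 the difference was -3.49 (exact permutation p = 0.0159), and without low_force 109 it was -2.31 (p = 0.0556). With low_force 055 left out the groups do not overlap, so that p could only be near the smallest possible.

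SHAT1-5 and NST1A encode NAC factors that promote secondary wall thickening in the pod, and they gave another denominator. Whether they and Pdh1 are expressed in the same cells was not tested. Per 1000 of their summed counts, Pdh1 had between 5.81 and 36.1 counts in high_force and between 88.03 and 344.9 in the 4 low_force libraries other than 055, whose 0 counts allow up to 66.7. The mean log2 ratio differed by -3.16, high_force minus low_force (two-sided exact permutation p = 0.0238, adjusted 0.0357 over the 3 measures). Here too the added 0.5 counts placed low_force 055 (3.47 on the log2 scale) above 3 of the 5 high_force libraries, 015, 044 and 060 (2.62 to 3.27). With an added count scaled to the counts of these genes, chosen after seeing the data, the difference was -2.45 and did not pass (exact permutation p = 0.167). Without low_force 055 it was -3.98 (exact permutation p = 0.00794, the smallest possible). The groups do not overlap without that library, so this p is no further support. The 2 genes themselves had log2 fold changes of -0.01 (SE 0.23) for SHAT1-5 and 0.24 (SE 0.22) for NST1A, and neither passed edgeR's test over all genes (adjusted p = 0.996 and 0.877). The sign of SHAT1-5 turned with library size scaling (0.49). Their levels overlapped between the groups. Since 0% of all genes passed that test, their not passing sets them apart from no other gene.

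**Figure D3:**
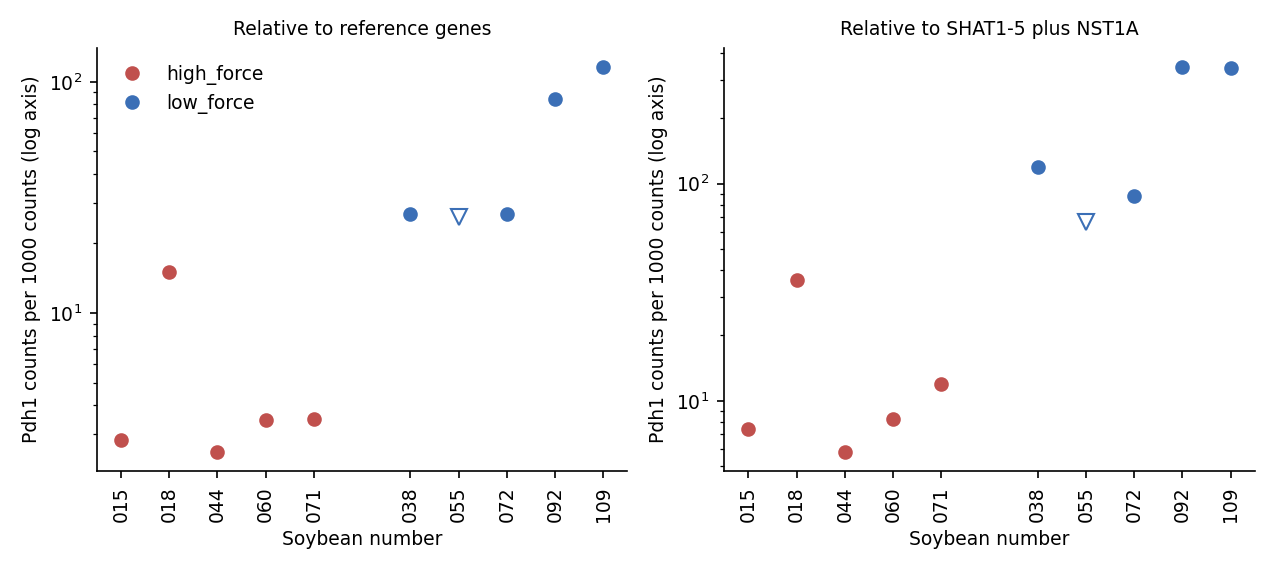
Pdh1 counts per 1000 counts of 4 reference genes (left panel) and per 1000 counts of SHAT1-5 plus NST1A (right panel), log axes, 1 point per library. The open triangle is the limit that 0 counts set in low_force 055. In both panels the high_force points, with 018 at 15.0 and 36.1 the highest of them, lie below the 4 low_force points.

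Seed transcripts and clock state also differed between libraries. The 4 seed genes Gy1, CG-alpha-prime (storage proteins), Le1 (lectin) and KTI3 (trypsin inhibitor) summed to between 0.697 and 122.6 CPM in high_force and between 10.9 and 10827 CPM in low_force, with the top value in low_force 109. Each had a count in every library except Le1, at 0 in high_force 015. Low_force 092 had 53.7 CPM of them at a Pdh1 level of 20.8 CPM, and low_force 109 had 10827 CPM at 22.6 CPM. Within low_force, 109 and 092 were highest both in these genes and in Pdh1. High_force 060 had 122.6 CPM at a Pdh1 level of 0.563 CPM. Without low_force 109 the Pdh1 log2 fold change was -3.38 (edgeR adjusted p = 0.564). Whether seed material bears on the Pdh1 levels was not tested.

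LHY1a, a morning gene of the circadian clock, split the libraries. It was high in high_force 015, low_force 055 and low_force 072 (646.7 to 1041 CPM) and low in the other 7 (11.8 to 19.3 CPM). Low_force 072 and 038, on either side of that split, had alike Pdh1 levels of 5.75 and 5.11 CPM. Low_force 092 and 109, also low in LHY1a, had 20.8 and 22.6 CPM, and low_force 055, high in LHY1a, had 0 counts. Whether clock state bears on the Pdh1 levels was not tested. Within the 7 libraries with low LHY1a (4 high_force, 3 low_force) the Pdh1 log2 fold change was -4.24 (edgeR adjusted p = 0.238). The exact permutation p there was 0.0286, the smallest those 7 libraries allow. These 7 leave out low_force 055, the one library that overlapped high_force, so that p follows from groups that do not overlap. Only 1 of the 3 with high LHY1a is from high_force, so no fit was made there.

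Likeness to Pdh1 was measured for all other genes tested by Pearson's r of log2 CPM over the 10 libraries. At r of at least 0.9, 26 genes (0.086%) followed Pdh1, and at r of at most -0.9, 21 genes (0.0695%) opposed it. A gene tested had a median of 35 followers (quartiles 9 and 128) and 22 opposers (quartiles 7 and 65) by the same limits, and 56.1% of genes had at least as many followers as Pdh1. The highest r to Pdh1 was 0.938, and 83.2% of genes had a closest partner at least that alike. At least as many opposers as Pdh1 were found for 51.7% of genes. Both counts of Pdh1 lay between the quartiles of all genes, so neither sets it apart. They were unstable, at 18 to 106 followers and 21 to 78 opposers without each soybean. All such counts describe libraries that share depth and composition effects, and no p is given because every gene was searched. Those over all 10 libraries also enter Pdh1 in low_force 055 at -2.05 log2 CPM, which the prior count sets for 0 counts.

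**Figure D4:**
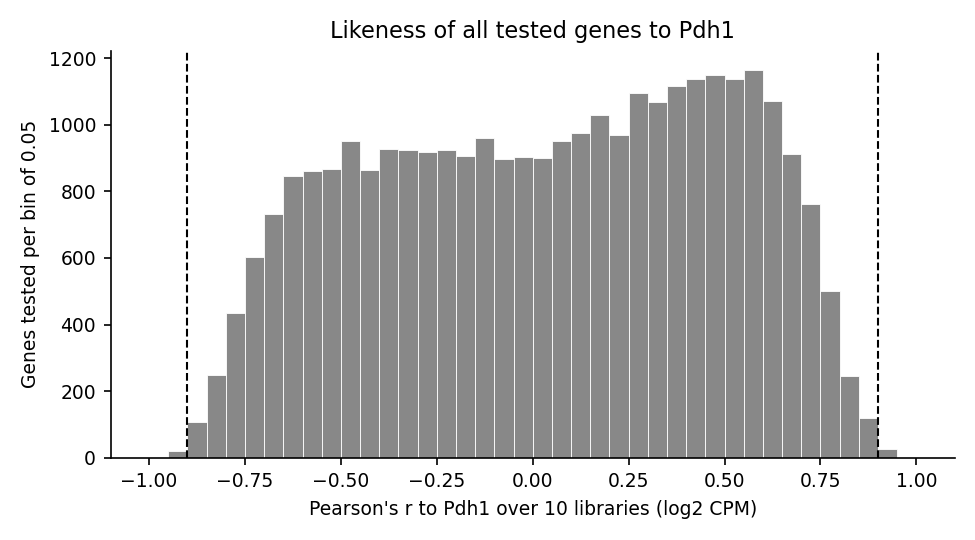
Number of tested genes in each bin of 0.05 of Pearson's r to Pdh1, from log2 CPM over 10 libraries. Dashed lines mark -0.9 and 0.9, beyond which lie 21 opposing and 26 following genes.

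All 26 followers had negative and all 21 opposers positive log2 fold changes, a direction that choosing genes by likeness to Pdh1 favours. Their median log2 fold changes were -0.85 and 0.58, and 0 of either passed edgeR's test over all genes. The followers' IDs name 15 chromosomes, with 1 follower on chromosome 16. Without low_force 055, 12 of the 26 followers and 9 of the 21 opposers stayed past the limit, and without low_force 092 and 109, the 2 libraries farthest from the median of Pdh1, 5 and 3 did. By Spearman's rho, 8 and 6 were past it.

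The files and the gene table used here give no name for the genes most like Pdh1, so they are given by ID. Glyma.09G190700 had the highest likeness (r = 0.938, rho = 0.952). It had 1, 7, 4, 2 and 5 counts in high_force 015, 018, 044, 060 and 071, at 0.165 to 1.31 CPM. In low_force it had 14, 0, 14, 72 and 20 counts in 038, 055, 072, 092 and 109, at 1.63 to 7.19 CPM outside low_force 055. Like Pdh1 it was highest in 018 within high_force and at 0 counts in 055, so its levels rest on few counts too.

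Glyma.20G225500 came next (r = 0.934, rho = 0.939) and was better counted. It lay between 4.46 and 6.56 CPM in high_force, on 27 to 112 counts. In low_force it lay at 8.71, 4.34, 11.7, 13.5 and 10.5 CPM in 038, 055, 072, 092 and 109, with 4 counts in 055. Outside low_force 055 its groups did not overlap. The log2 fold changes were -2.73 (SE 0.75) for Glyma.09G190700 and -0.80 (SE 0.29) for Glyma.20G225500, with an edgeR adjusted p of 0.796 for both, and -2.93 and -0.95 without low_force 055 (adjusted p = 0.633 for both). Without low_force 055, r was 0.917 for each, and without low_force 092 and 109 it was 0.976 and 0.909.

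The genes most opposed were Glyma.13G065500 (r = -0.946, rho = -0.891) and Glyma.07G168200 (r = -0.945, rho = -0.903). Glyma.13G065500 lay at 5.25 to 10.4 CPM in high_force, and at 5.69, 11.9, 5.06, 2.59 and 3.73 CPM in low_force 038, 055, 072, 092 and 109. Glyma.07G168200 lay at 2.44 to 5.41 CPM in high_force and at 1.01 to 8.68 CPM in low_force. Both were highest in low_force 055 (on 11 and 8 counts), where Pdh1 was at 0, and their groups overlapped. Their log2 fold changes of 0.60 (SE 0.39) and 0.90 (SE 0.59) did not pass edgeR's test (adjusted p = 0.836 for both). In the fit without low_force 055 they were 0.91 (SE 0.32) and 1.54 (SE 0.42), with an edgeR adjusted p of 0.633 for both. Without low_force 055, r was -0.929 for each, and without low_force 092 and 109 it was -0.906 and -0.908.

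**Figure D5:**
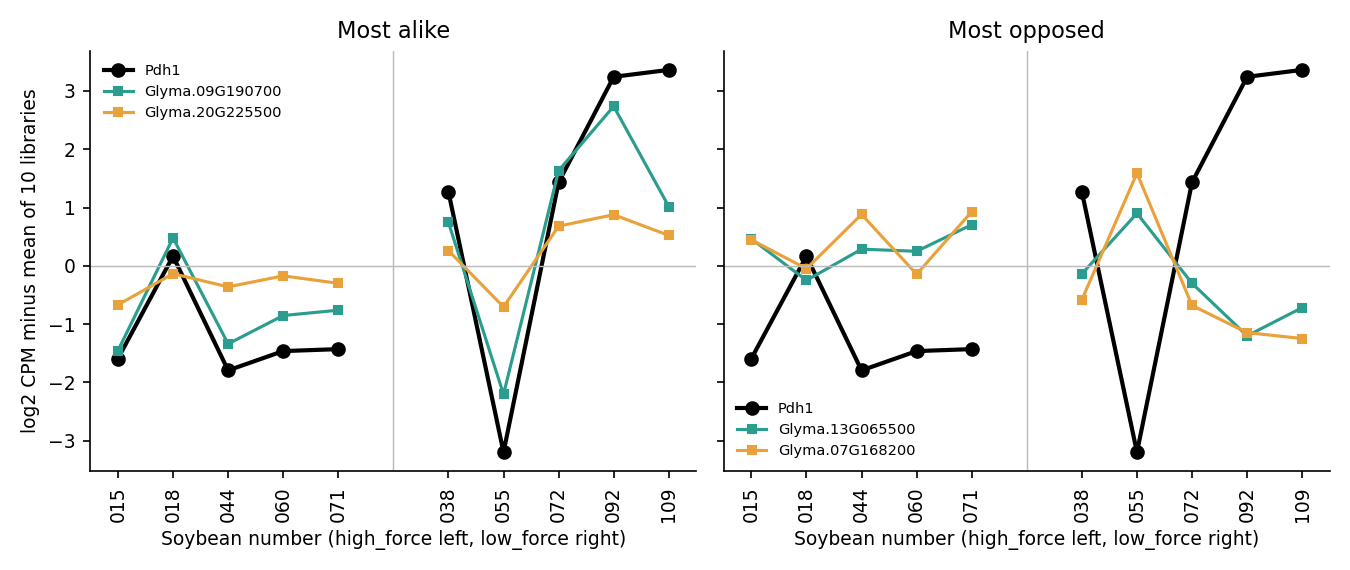
Log2 CPM minus each gene's mean over the 10 libraries, for Pdh1 (black) with the 2 genes most like it (left panel) and the 2 most opposed (right panel), high_force libraries left of the line and low_force libraries right of it. Pdh1 and Glyma.09G190700 share the low point at low_force 055 and a level in high_force 018 above the rest of its group, while the opposed genes peak at low_force 055. Pdh1 and Glyma.09G190700 both had 0 counts in low_force 055, so their low point there is set by the prior count and is not a measured level.

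The other named genes tested did not reach the limit. SHAT1-5 had r = 0.558 (rho = 0.624) and NST1A r = -0.197 (rho = -0.345). The chalcone synthase gene CHS7, of the first step of flavonoid synthesis, had r = 0.804 (rho = 0.612), and its near-identical copy CHS8, with which it can share reads, had 0.730 (rho = 0.576). LHY1a had r = -0.371 (rho = -0.394). Of the seed genes tested, Gy1 had r = 0.576 (rho = 0.491), CG-alpha-prime 0.612 (rho = 0.673) and KTI3 0.532 (rho = 0.552). Among the reference genes, r was 0.634 for ACT11 (rho = 0.685) and 0.590 for ELF1B (rho = 0.527). It was 0.390 for UKN1 (rho = 0.455) and 0.473 for TIP41 (rho = 0.345). Without low_force 055, r was 0.422 for SHAT1-5, -0.372 for NST1A, 0.889 for CHS7 and 0.802 for CHS8. It was -0.174 for LHY1a, 0.593 for Gy1, 0.623 for CG-alpha-prime and 0.542 for KTI3. For ACT11, ELF1B, UKN1 and TIP41 it was 0.565, 0.486, 0.280 and 0.255.

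The nearest tested neighbours of Pdh1 by ID order had other patterns. Glyma.16G141300 lay at 7.87 to 20.8 CPM in high_force and 6.43 to 14.8 CPM in low_force, and Glyma.16G141500 at 6.74 to 70.96 CPM in high_force and 6.49 to 52.1 CPM in low_force. Their log2 fold changes of 0.32 (SE 0.33) and 0.29 (SE 0.73) did not pass (edgeR adjusted p = 0.889 and 0.961), and that of Glyma.16G141500 was -0.73 without high_force 015 and 0.91 without low_force 055. Their r to Pdh1 was -0.323 (rho = -0.430) and -0.614 (rho = -0.661), and without low_force 055 it was -0.294 and -0.482.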

How the data were processed

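The deposited values are unnormalised whole-number read counts of 56044 genes from 10 pod libraries. Tools named in the submitters' processing notes, without roles or settings, are edgeR, featureCounts, TopHat2, Subread 1.6.2 and Trim Galore 0.4.4. Strand handling, the counting of reads with several matches, and the genome build beyond the ending of the gene IDs, are not given in the sources used here.

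With edgeR 4.0.16 (R 4.3.3), counts were filtered by filterByExpr, scaled by TMM and tested by quasi-likelihood, with Benjamini-Hochberg adjustment over the 30226 genes tested, threshold 0.05, two-sided. The SE of a log2 fold change was taken from it and the square root of the F statistic. Log2 CPM uses a prior count of 2. Limma-voom (limma 3.58.1), DESeq2 1.42.0, edgeR's exact test, other scalings and filters, and leaving out each soybean were tried. The fit and the likeness step were tested on simulated data. Where a count is 0, 3 counts are the limit.

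Pdh1 and all lists were chosen with earlier results of these data known. The rule names Pdh1, SHAT1-5, NST1A, reference, clock, seed and CHS genes, the 2 genes most and the 2 least like Pdh1, and its nearest tested neighbours. Names other than IDs come from published work as recalled. The RefSeq gene table (Glycine_max_v4.0) holds none of the deposited IDs, and no sequence was used here.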

Additional observations from a re-analysis of the deposited data

Results flagged for a closer look

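Within groups of 5, 22 sets of values were searched for a library far from the others, a rule that picks about 1 in 20 by chance, and 4 were found. High_force 018 stood above its group for Pdh1, at 1.32 log2 CPM where the next library was at -0.28. It did so as well for Pdh1 per 1000 reference gene counts (15.0, next 3.50) and per 1000 counts of SHAT1-5 plus NST1A (36.1, next 11.9). These 3 share the same 12 Pdh1 counts, so they are 1 observation. Low_force 055 stood above its group for Glyma.07G168200, at 3.16 log2 CPM on 8 counts where the next library was at 0.99.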

How the results depend on the processing

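No paired analysis was possible because the groups share no replicate number. The Pdh1 log2 fold change kept its sign in each fit. It passed over all genes with library size only (-3.49) and DESeq2 (-3.76), and lay between -4.47 and -3.38 without each soybean, never passing. Genes called were 36 higher and 26 lower with library size only, 6 and 19 with DESeq2, 2 and 1 with the edgeR exact test, 1 and 1 in the 7 libraries with low LHY1a, and 0 to 1 higher and 0 lower without each soybean. The difference in mean log2 CPM passed with a prior count of 5 (-2.26, exact permutation p = 0.0476) and in the libraries with low LHY1a (-3.82). With a prior count of 0.5 it did not pass (-2.36, exact permutation p = 0.190). Without each soybean it ranged from -3.58 to -1.91, passing only without low_force 055. These alternatives for mean log2 CPM were chosen after seeing the data. The log2 ratio to the reference genes ranged from -3.49 to -2.31 without each soybean, losing its pass without low_force 109, and with a scaled added count it was -2.05, or -2.45 over SHAT1-5 plus NST1A, and did not pass.

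The number of followers and opposers was the least stable result. Followers were 64 with Spearman's rho (26 opposers). With a prior count of 0.5 there were 47 followers and 34 opposers, with library size only 4 and 1, with group-centred values 750 and 188, and with group-centred values without low_force 055, chosen after seeing the data, 51 and 75. Without each soybean, followers ranged from 18 to 106 and opposers from 21 to 78. The cause was not tested. The sign of SHAT1-5 turned with library size only (0.49) and with no filter (0.0083), and it lay between -0.10 and 0.12 without each soybean. That of Glyma.16G141500 lay between -0.73 and 0.91. Depth limits Pdh1 itself: 3 to 12 counts per high_force library, and 0 in low_force 055.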
